A study of Homo sapiens with 16 samples.

Results

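The genes described here encode protein disulfide isomerases (PDIs) of the endoplasmic reticulum (ER) and the ERO1 oxidases that keep them oxidized. They are 10 of the 58051 genes in the count table and were taken by symbol: P4HB, PDIA3, PDIA4, PDIA5, PDIA6, TXNDC5, TXNDC11, ERP44, ERO1A and ERO1B. All 10 passed the filter on low counts in every comparison. RNA-seq was carried out on LNCaP, a human prostate cancer cell line, at passage 20, in 4 groups of 4 libraries each. The knockdown experiment used Allstar control siRNA (siCtrl) or siRNA against XBP1 (siXBP1) 2 days earlier. The inhibitor experiment used the solvent DMSO (Vehicle) or 10 µM MKC8866, an inhibitor of the RNase of IRE1α, for 24 h. All 4 groups ended with 3 h of 30 nM thapsigargin. Thapsigargin inhibits the pump that fills the ER with calcium, which stresses the ER, and both controls carry this stress. The labels number the replicates within a group but do not say whether they were separate cultures, and p-values therefore measure the spread between these libraries, which may be technical. Levels are given as CPM, counts scaled to library size by the TMM method.

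Secretory and membrane proteins form their disulfide bonds in the lumen of the ER. PDIs carry thioredoxin-like domains whose cysteine pairs make, break and rearrange these bonds in a client protein. Each bond that a PDI makes leaves the enzyme reduced, and ERO1 oxidizes it again, passing the electrons to oxygen with hydrogen peroxide as a product. When unfolded proteins build up, IRE1α cuts the XBP1 mRNA and the spliced form encodes XBP1s, a transcription factor that acts on many genes of the secretory pathway. The other arms of the unfolded protein response run through ATF6 and through PERK with ATF4 and CHOP. The comparisons ask how far PDI and ERO1 mRNAs depend on XBP1 and on the RNase of IRE1α in cells that end under ER stress. No group went without thapsigargin, so changes from before the stress and changes under it cannot be told apart.

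Between 28713607 and 34509488 fragments were counted per library. XBP1, the target of the siRNA, was at 359 to 422 CPM in siCtrl and at 51.2 to 54.2 CPM in siXBP1, and at 483 to 539 CPM in Vehicle and 537 to 619 CPM with MKC8866. The counts do not separate spliced from unspliced XBP1, so they check the knockdown and not the action of the inhibitor. The summed level of 8 luminal prostate markers was 3222 to 4749 CPM over all libraries. It was 4188 to 4405 CPM in siCtrl against 3222 to 3328 CPM in siXBP1, where 5 of the 8 markers were called lower, against 18.2% of all genes tested. It was 4214 to 4310 CPM in Vehicle against 4652 to 4749 CPM with MKC8866. Over all libraries, 3 basal markers summed to 0.574 to 1.46 CPM, 3 neuroendocrine markers to 2.42 to 4.25 CPM, 3 fibroblast markers to 27.1 to 39.7 CPM, most of it COL1A1, and 2 leukocyte markers to at most 0.0913 CPM. The neuroendocrine sum was 3.62 to 4.25 CPM in Vehicle against 2.42 to 2.95 CPM with MKC8866, where SYP was called lower (log2 fold change -0.54, edgeR adjusted p = 0.00599). The fibroblast sum was 27.1 to 35.7 CPM in siCtrl against 35.5 to 38.5 CPM in siXBP1, where COL3A1 was called higher (log2 fold change 1.10, edgeR adjusted p = 1.32e-06), from 2.05 ± 0.218 to 4.38 ± 0.656 CPM (SD, n = 4). COL1A1 was at 29.6 ± 3.32 CPM in siCtrl and 32.9 ± 1.41 CPM in siXBP1 and was not called (edgeR adjusted p = 0.0762). PDGFRA had means of 0.0465 CPM in siCtrl and 0.0243 CPM in siXBP1. The part of the luminal, neuroendocrine and fibroblast shifts in the results below was not tested. INSM1 was listed at 0 in every library of Vehicle and MKC8866. In such bulk samples, fewer cells of a type and less RNA per cell cannot be told apart.

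Promoter sequence is shown because XBP1s and ATF6 are known to bind short elements near the start of ER stress genes. RefSeq promoter windows (GRCh38.p14), running from 250 bases before to 50 bases after an annotated start, held entries for 9 of the 10 genes, with none for PDIA3. Both strands were searched for the ER stress response element (ERSE, CCAAT and CCACG with 9 bases between them), for ERSE-II (ATTGG and CCACG with 1 base between them), for the core of the unfolded protein response element (UPRE, TGACGTGG) and for the short motif CCACG, which lies within ERSE and ERSE-II and, read on the other strand as CGTGG, within the UPRE core. Only exact letters were matched. A gene was counted when any of its windows held a match (12 windows for the 9 genes), whereas the shares below are of single windows. ERSE was found in windows of PDIA6 and ERO1B, and in 0.0769% of all 35116 promoter windows. The UPRE core was found in windows of TXNDC11 and TXNDC5, and in 0.729% of all windows. CCACG was found in those 4 genes and in PDIA4 and PDIA5, and in 38.1% of all windows. ERSE-II was found in 0 of the 9 genes and in 0.0541% of all windows. A selection is printed below, namely each match of ERSE and of the UPRE core and, of the CCACG matches, that of PDIA5 that reads the same on both strands. CCACG matches elsewhere in the windows, those of PDIA4 among them, are not printed. The sequences run 5′ to 3′ on the strand of the gene, with 4 bases on each side and the letters of the motif in capitals. A match describes letters and is not evidence of binding.
PDIA6: cggaCCAATgagccgcagCCACGgctt
ERO1B: cccgCGTGGtcccgcctcATTGGccgc
TXNDC11: cggcTGACGTGGagcg
TXNDC5: cggcTGACGTGGcgct
PDIA5: gctgCCACGtggc
The PDIA6 match lies on the minus strand at chr2:10812849-10812875, at position -86 from an annotated start inside the gene. The ERO1B match lies on the minus strand at chr1:236282179-236282205 and holds ERSE in the reverse orientation, at position -243. The UPRE core of TXNDC11 lies on the minus strand at chr16:11742841-11742856, 5 bases after the start. The UPRE core of TXNDC5 lies on the minus strand at chr6:7910158-7910173, at position -92 from the start of the 265-base block of TXNDC5 described below. The CCACG of PDIA5 lies on the plus strand at chr3:123066900-123066912, and with the bases after it reads the same on both strands.

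Of the genes with an ERSE or UPRE core match, PDIA6, ERO1B and TXNDC11 were called lower after both treatments, and TXNDC5 with MKC8866 alone. Of the genes tested in both comparisons, 2.48% were called lower in both, and with MKC8866 3.11% of all genes tested were. After knockdown TXNDC5 was not called (log2 fold change 0.11, edgeR adjusted p = 0.816). Of 8 fits that each left out 1 library, only that without siXBP1 replicate 3 called it lower (log2 fold change -0.53, edgeR adjusted p = 0.00938). P4HB, with none of the 4 motifs in its windows, was called lower after both. Whether the motifs have a part in these changes was not tested.

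The levels of the genes differed widely. Per kilobase of exon in siCtrl, PDIA4 was highest at 307 CPM per kilobase, followed by PDIA3 at 184 and P4HB at 169, PDIA6 at 81.6, ERP44 at 29.5 and TXNDC11 at 25.8. PDIA5 was at 11.7, ERO1A at 5.80, ERO1B at 3.88 and TXNDC5 at 1.39 CPM per kilobase. P4HB, PDIA3, PDIA4 and PDIA6, the abundant isomerases, held 89.0% ± 0.0664 (SD, n = 4) of the summed CPM of the 10 genes in siCtrl, and 90.7% ± 0.163 in siXBP1, 89.7% ± 0.211 in Vehicle and 90.2% ± 0.200 with MKC8866. The summed level was 3388 ± 87.1 CPM in siCtrl and 3034 ± 86.8 CPM in siXBP1. It was 3538 ± 32.1 CPM in Vehicle and 3016 ± 32.1 CPM with MKC8866. The libraries of each treated group lay below those of its own control in this sum, with 3271 CPM the lowest in siCtrl and 3154 CPM the highest in siXBP1.

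**Figure D1:**
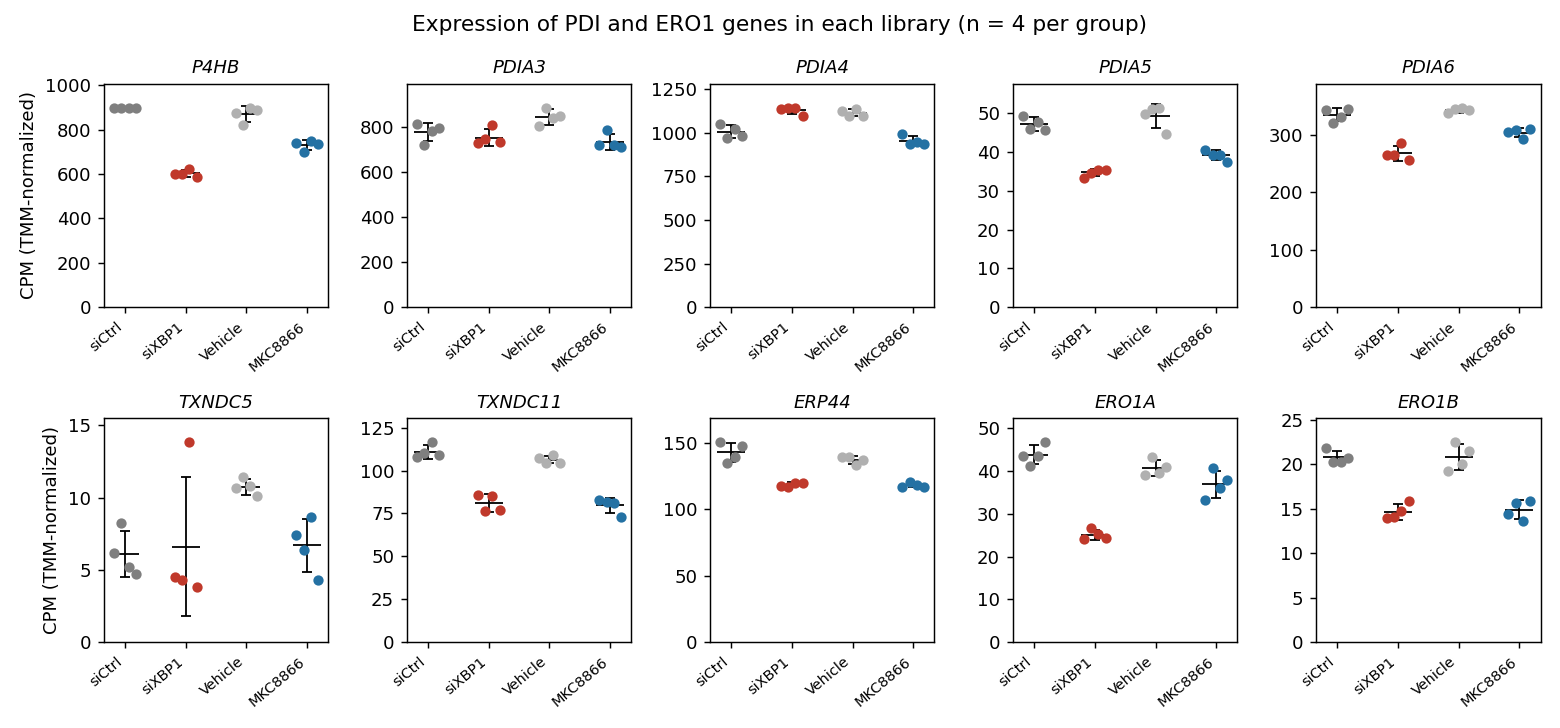
TMM-normalized CPM (y axis, from 0, with its own scale in each panel) of the 10 genes in siCtrl, siXBP1, Vehicle and MKC8866 (x axis), where each point is 1 library and bars show the mean and SD of 4 libraries. P4HB, PDIA5, PDIA6, ERO1A and ERO1B had their lowest mean in siXBP1. PDIA4 in siXBP1 lay above siCtrl, and 1 siXBP1 library stood at 13.8 CPM for TXNDC5.

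XBP1 knockdown lowered 7 of the 10 genes and raised 1. The 7 were ERO1A, P4HB, ERO1B, TXNDC11, PDIA5, PDIA6 and ERP44, with log2 fold changes from -0.80 to -0.27, and PDIA4 rose. PDIA3 and TXNDC5 did not pass the test (edgeR quasi-likelihood F test, Benjamini-Hochberg adjusted p under 0.05). Over all genes tested, 18.2% were called lower and 16.5% higher. The median log2 fold change of the 10 genes was -0.38, against 0.00 for all genes tested. The same 7 genes had all 4 siXBP1 libraries below all 4 siCtrl libraries, which held for 17.2% of all genes tested, and PDIA4 had all 4 above, which held for 15.5%.

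MKC8866 lowered 9 of the 10 genes and raised 0. ERO1A was the exception and did not pass the test, though its estimate was also below 0 and some alternative fits called it lower. Over all genes tested, 3.11% were called lower and 1.36% higher. The median log2 fold change of the 10 genes was -0.24, against 0.00 for all genes tested. The 9 genes had all 4 MKC8866 libraries below all 4 Vehicle libraries, which held for 5.29% of all genes tested. P4HB, PDIA5, PDIA6, TXNDC11, ERP44 and ERO1B were called lower in both comparisons, as were 2.48% of the genes tested in both.

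P4HB encodes the founding PDI, which also serves as the beta subunit of collagen prolyl 4-hydroxylase and as a subunit of the microsomal triglyceride transfer protein. The gene (ENSG00000185624) lies on the minus strand at chr17:81843159-81860694 (hg38). Its levels in siCtrl replicates 1 to 4 were 896, 897, 898 and 899 CPM, and in siXBP1 they were 603, 600.5, 621 and 587 CPM. The siXBP1 libraries lay far below siCtrl, whose 4 libraries differed by less than 4 CPM. P4HB fell by 32.9% (log2 fold change -0.57, SE 0.036, edgeR adjusted p = 2.11e-11). In Vehicle it was at 876, 821, 898 and 889.7 CPM, and with MKC8866 at 739, 699, 751 and 734 CPM. These groups did not overlap either, and the fall was smaller (log2 fold change -0.25, SE 0.037, edgeR adjusted p = 6.13e-05). Of its exon bases, 9.98% are shared with ENSG00000262831 on the opposite strand.

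PDIA3, also known as ERp57, works with the lectin chaperones calnexin and calreticulin on glycoproteins and sits in the loading complex of MHC class I. The gene (ENSG00000167004) lies on the plus strand at chr15:43746392-43773279. It was at 814, 723, 782 and 797 CPM in siCtrl and at 728, 746, 809 and 734 CPM in siXBP1. These ranges overlapped, and the log2 fold change of -0.05 (SE 0.044, 95% interval -0.14 to 0.05) did not pass the test (edgeR adjusted p = 0.478). In Vehicle it was at 806, 888, 840.1 and 851 CPM, and with MKC8866 at 721, 787, 722 and 712 CPM. Every MKC8866 library was below every Vehicle library, and PDIA3 fell (log2 fold change -0.20, SE 0.039, edgeR adjusted p = 0.00184). The retrocopy PDIA3P1 was counted at 112 ± 3.10 CPM in siCtrl, 106 ± 4.26 in siXBP1, 114 ± 3.20 in Vehicle and 102 ± 4.94 with MKC8866 (SD, n = 4). Reads cannot always be split between the gene and such a copy, and PDIA3 counts are uncertain to that extent. PDIA3 also shares 14.8% of its exon bases with ELL3 on the opposite strand.

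PDIA4, also known as ERp72, is found in complexes with the ER chaperone BiP. The gene (ENSG00000155660) lies on the minus strand at chr7:149003062-149028641 and shares no exon base with another gene. It was at 1049.5, 971, 1023 and 979 CPM in siCtrl, and at 1134, 1139.8, 1143 and 1095 CPM in siXBP1. All 4 siXBP1 libraries lay above siCtrl, and PDIA4 rose by 12.2% (log2 fold change 0.17, SE 0.038, edgeR adjusted p = 0.00153). It was at 1125, 1096, 1134 and 1095 CPM in Vehicle, and at 990.0, 933, 949 and 934 CPM with MKC8866. Here all 4 treated libraries lay below the control, and PDIA4 fell by 14.4% (log2 fold change -0.22, SE 0.034, edgeR adjusted p = 9.61e-05). It was the only one of the 10 genes called in opposite directions by the 2 treatments.

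PDIA6, also known as P5, is an abundant isomerase that binds BiP and is known to act on the lumenal domain of IRE1α. The gene (ENSG00000143870) lies on the minus strand at chr2:10783391-10837977 and carries the ERSE match printed above. It was at 343, 320.4, 330.1 and 344 CPM in siCtrl and at 264, 265, 286 and 256 CPM in siXBP1. In Vehicle it was at 337, 345, 347 and 343 CPM, and with MKC8866 at 304, 308, 292 and 310.2 CPM. Neither pair of groups overlapped. PDIA6 fell by 19.9% after knockdown (log2 fold change -0.32, SE 0.042, edgeR adjusted p = 2.26e-06) and by 11.3% with MKC8866 (log2 fold change -0.17, SE 0.036, edgeR adjusted p = 0.00335). It shares 25.2% of its exon bases with ATP6V1C2 on the opposite strand, which was counted at 0.578 to 1.23 CPM over all libraries.

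PDIA5, a less abundant isomerase, lies on the plus strand at chr3:123067062-123225227 (ENSG00000065485). It was at 49.3, 45.9, 47.8 and 45.6 CPM in siCtrl, and at 33.4, 34.7, 35.4 and 35.4 CPM in siXBP1. It was at 49.9, 51.0, 51.4 and 44.6 CPM in Vehicle, and at 40.5, 39.3, 39.2 and 37.5 CPM with MKC8866. The treated libraries lay below the control in both experiments. The log2 fold change was -0.44 after knockdown (SE 0.048, edgeR adjusted p = 1.70e-07) and -0.33 with MKC8866 (SE 0.053, edgeR adjusted p = 1.87e-04). PDIA5 shares 12.2% of its exon bases with SEC22A on the same strand, and fragments within the shared bases are assigned to neither gene. SEC22A fell after knockdown (log2 fold change -1.29, edgeR adjusted p = 4.17e-11) from 17.3 ± 1.77 to 7.05 ± 0.460 CPM (SD, n = 4). With MKC8866 SEC22A was not called (log2 fold change -0.22, edgeR adjusted p = 0.155).

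TXNDC11 is a membrane-anchored thioredoxin-domain protein of the ER that works with the degradation factor EDEM2. The gene (ENSG00000153066) lies on the minus strand at chr16:11679080-11742878, with a UPRE core just after its start. It was at 108, 109.9, 116 and 109 CPM in siCtrl, and at 85.9, 76.4, 85.4 and 76.9 CPM in siXBP1. It was at 107, 105, 109 and 104 CPM in Vehicle, and at 83.0, 81.5, 81.2 and 72.8 CPM with MKC8866. Both treated groups lay below both control groups. The log2 fold change was -0.45 after knockdown (SE 0.048, edgeR adjusted p = 1.09e-07) and -0.42 with MKC8866 (SE 0.046, edgeR adjusted p = 7.40e-07). By p-value among genes with a negative log2 fold change, TXNDC11 held rank 109 of 10334 with MKC8866, the highest rank of the 10 genes in that comparison.

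ERP44 retains ERO1 and other clients by retrieving them from the Golgi, since the ERO1 oxidases lack a retention signal of their own. The gene (ENSG00000023318) lies on the minus strand at chr9:99979179-100099040 and shares no exon base with another gene. It was at 151, 135, 139 and 148 CPM in siCtrl, and at 118, 117, 120.1 and 120.2 CPM in siXBP1. It was at 139, 139.5, 133 and 137 CPM in Vehicle, and at 117, 121, 118 and 117 CPM with MKC8866. Both treated groups lay within a few CPM of each other and below both controls. ERP44 fell after knockdown (log2 fold change -0.27, SE 0.043, edgeR adjusted p = 2.61e-05) and with MKC8866 (log2 fold change -0.21, SE 0.039, edgeR adjusted p = 8.54e-04).

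ERO1A encodes the more abundant of the 2 ERO1 oxidases in these cells and is known as a target of CHOP and of hypoxia-inducible factor. The gene (ENSG00000197930) lies on the minus strand at chr14:52639916-52695900. It was at 43.6, 41.3, 43.6 and 46.7 CPM in siCtrl, and at 24.1, 26.6, 25.2 and 24.4 CPM in siXBP1. No siXBP1 library came near siCtrl, and ERO1A fell by 42.7% (log2 fold change -0.80, SE 0.054, edgeR adjusted p = 6.86e-11), which was the largest fall of the 10 genes after knockdown. It was at 39.1, 43.3, 39.5 and 41.0 CPM in Vehicle, and at 33.2, 40.7, 36.1 and 37.9 CPM with MKC8866. These groups overlapped through MKC8866 replicate 2, and the log2 fold change of -0.14 (SE 0.058, 95% interval -0.26 to -0.02) did not pass the test (edgeR adjusted p = 0.248). Without that replicate it was -0.19 and passed (edgeR adjusted p = 0.0471). A fit with replicate number as a block also called ERO1A lower with MKC8866, as given with the other alternatives in the last section.

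ERO1B, the other oxidase, lies on the minus strand at chr1:236215555-236281985 (ENSG00000086619) and carries the reverse ERSE match. It was at 21.9, 20.3, 20.3 and 20.7 CPM in siCtrl, and at 13.98, 14.05, 14.8 and 15.9 CPM in siXBP1. It was at 19.3, 22.5, 20.1 and 21.5 CPM in Vehicle, and at 14.4, 15.6, 13.6 and 15.9 CPM with MKC8866. Both treated groups lay below both control groups. The log2 fold change was -0.50 after knockdown (SE 0.064, edgeR adjusted p = 1.67e-06) and -0.48 with MKC8866 (SE 0.068, edgeR adjusted p = 3.27e-05).

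Beside these changes, the ratio of the 2 oxidases was lower in siXBP1 than in siCtrl and higher with MKC8866 than in Vehicle. The ratio of ERO1A to ERO1B per kilobase was 1.498 ± 0.0854 in siCtrl and 1.22 ± 0.105 in siXBP1 (SD, n = 4). It was 1.39 ± 0.0379 in Vehicle and 1.77 ± 0.122 with MKC8866. The ratio of P4HB to PDIA4 per kilobase was 0.552 ± 0.0207 in siCtrl and 0.330 ± 0.00440 in siXBP1, but 0.484 ± 0.0163 in Vehicle and 0.475 ± 0.0146 with MKC8866. No test was run on these ratios.

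TXNDC5, also known as ERp46, was the weakest of the 10 genes in these counts and the least certain. The gene (ENSG00000239264) lies on the minus strand at chr6:7881517-7910814, and 60.6% of its exon bases are shared with the readthrough gene BLOC1S5-TXNDC5 on the same strand. Fragments within shared bases are assigned to neither gene, and the readthrough gene was itself counted at 0 to 0.0330 CPM. The 1729 unshared bases include 301 and 265 bases at the 5′ end and blocks of 597 and 561 bases further into the gene, so that the level of TXNDC5 is understated and rests on these parts. Per kilobase of unshared exon it was 3.52 CPM in siCtrl, against 1.39 CPM per kilobase of all exons. The lowest count in a library was 126 fragments.

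TXNDC5 was at 6.19, 8.25, 5.20 and 4.69 CPM in siCtrl, and at 4.49, 4.30, 13.8 and 3.83 CPM in siXBP1. A single library, siXBP1 replicate 3, stood above all others of both groups. The log2 fold change was 0.11 (SE 0.28, edgeR adjusted p = 0.816) with that library and -0.53 (edgeR adjusted p = 0.00938) without it. TXNDC5 was at 10.7, 11.4, 10.8 and 10.1 CPM in Vehicle, and at 7.39, 6.40, 8.68 and 4.31 CPM with MKC8866. These groups did not overlap, and it fell by 38.0% (log2 fold change -0.69, SE 0.13, edgeR adjusted p = 9.90e-04). In a fit of all 16 libraries, which also takes in the spread of siXBP1, the same log2 fold change had an edgeR adjusted p of 0.137.

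**Figure D2:**
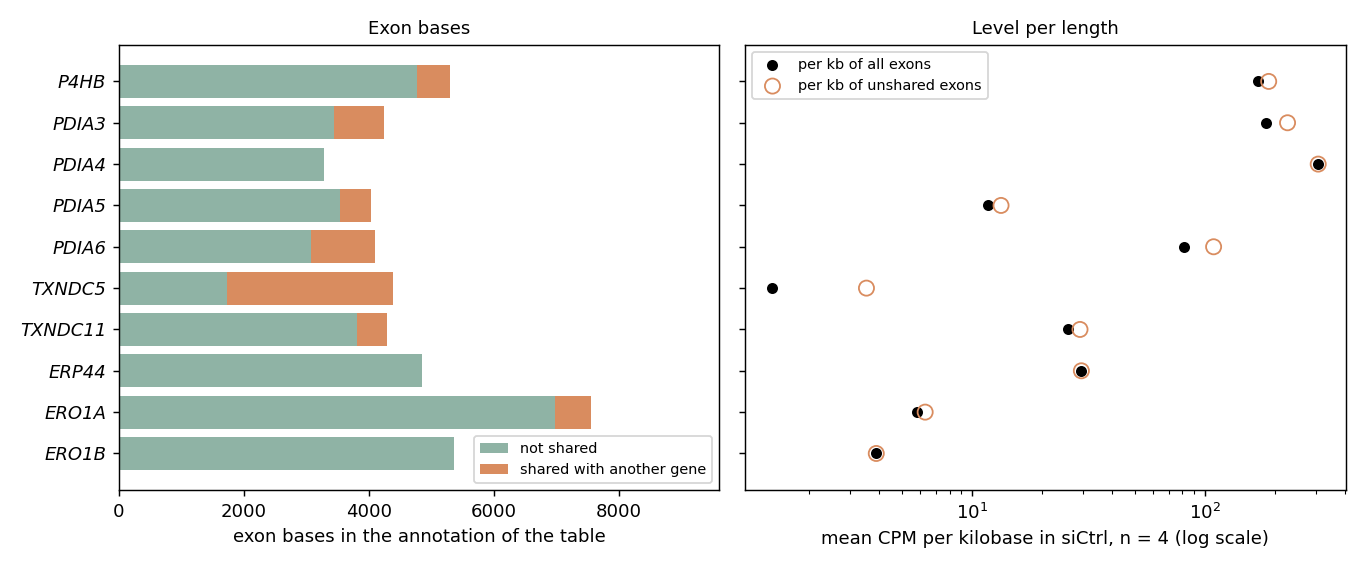
Exon bases of the 10 genes that are shared or not shared with another annotated gene (left, x axis in bases) and mean CPM per kilobase in siCtrl over 4 libraries (right, log scale), per kilobase of all exons (filled) and of unshared exons (open). TXNDC5 shared 60.6% of its exon bases and moved from 1.39 to 3.52 CPM per kilobase, while PDIA4, ERP44 and ERO1B shared none.

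Whether the 2 treatments changed a gene by different amounts was tested with an interaction term over the 16 libraries. The response was more negative after knockdown for 2 of the 10 genes, against 12.7% of all genes tested, and more positive for 1, against 10.6%. P4HB fell further after knockdown than with MKC8866, with a difference of -0.32 on the log2 scale (SE 0.051, edgeR adjusted p = 1.62e-05). ERO1A also fell further after knockdown, with a difference of -0.66 (SE 0.081, edgeR adjusted p = 2.48e-07). PDIA4 had a difference the other way, of 0.39 (SE 0.050, edgeR adjusted p = 5.41e-07). The experiments also differ in transfection, solvent and time of treatment, and these cannot be told apart from the kind of inhibition.

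For the other 7 genes the difference did not pass the test, which does not show that the responses were equal. The 95% interval of the difference on the log2 scale was -0.17 to 0.10 for TXNDC11, -0.17 to 0.06 for ERP44, -0.20 to 0.17 for ERO1B and -0.25 to 0.03 for PDIA5. PDIA6 and PDIA3 were near the threshold. The difference was -0.15 for PDIA6 (interval -0.26 to -0.03, edgeR adjusted p = 0.0502) and 0.16 for PDIA3 (interval 0.03 to 0.28, edgeR adjusted p = 0.0672). DESeq2 called both, with adjusted p = 0.0279 and 0.0488. For TXNDC5 the difference was 0.80 (interval 0.05 to 1.54, edgeR adjusted p = 0.119), and 0.15 without siXBP1 replicate 3. It passed without siXBP1 replicate 4 (0.99, edgeR adjusted p = 0.044).

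**Figure D3:**
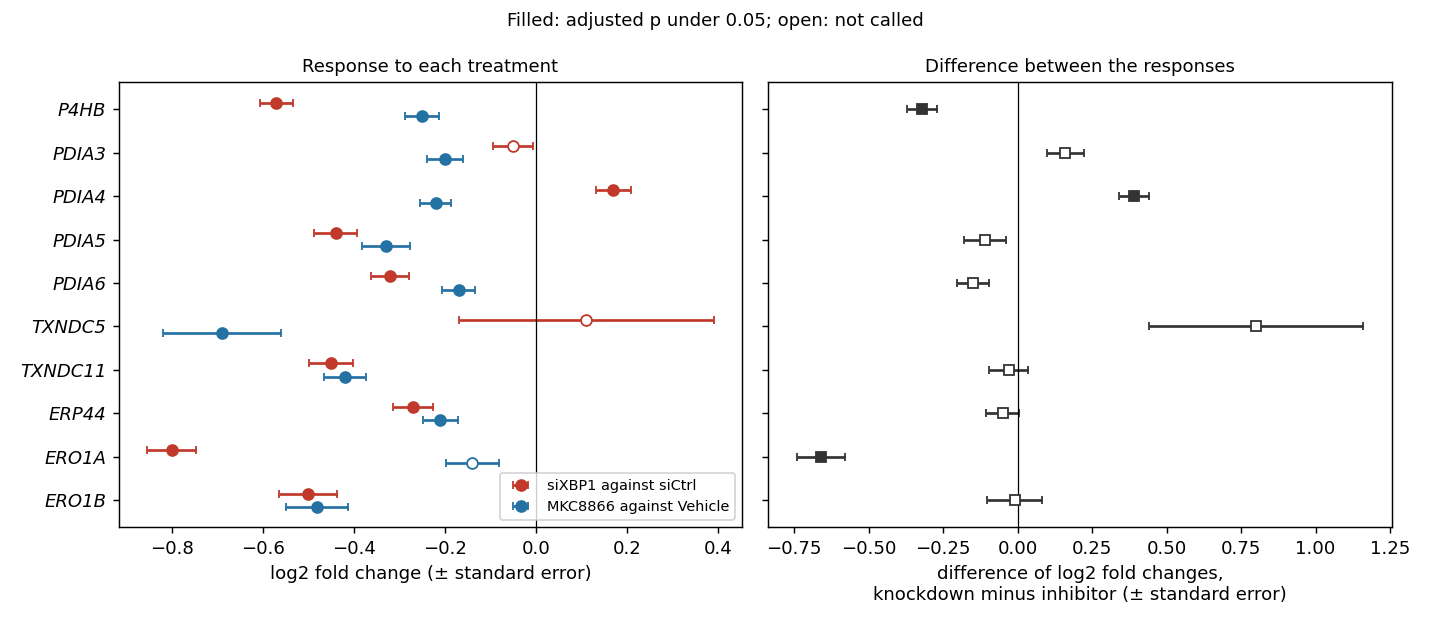
Log2 fold changes of the 10 genes after XBP1 knockdown and with MKC8866 (left, x axis on the log2 scale) and the difference between these responses (right), with bars of 1 SE and filled symbols for an adjusted p under 0.05. TXNDC11, ERP44 and ERO1B had nearly the same estimate in both experiments, while ERO1A, P4HB and PDIA4 had differences of -0.66, -0.32 and 0.39.

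The 2 control groups were compared as well, since they come from different experiments. Vehicle was higher than siCtrl for 2 of the 10 genes and lower for 0, where 7.39% of all genes tested were called higher and 7.65% lower. PDIA4 was higher by 0.15 on the log2 scale (SE 0.035, edgeR adjusted p = 0.00432) and TXNDC5 by 0.82 (SE 0.25, edgeR adjusted p = 0.0245). The TXNDC5 call was lost with DESeq2 (adjusted p = 0.114) and without siCtrl replicate 3 or 4 or Vehicle replicate 2 or 3 (edgeR adjusted p from 0.0506 to 0.0789). Transfection, solvent and time cannot be told apart in this comparison.

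The order of the 4 groups differed from gene to gene. For P4HB, PDIA5, PDIA6 and ERO1A the mean was lowest in siXBP1, then MKC8866, and the libraries of these groups did not overlap. For ERO1B the order began in the same way but the groups overlapped. TXNDC11 and ERP44 had their lowest means with MKC8866, with overlap between MKC8866 and siXBP1. PDIA4 was lowest with MKC8866, where it overlapped with siCtrl, and highest in siXBP1, where it overlapped with Vehicle. TXNDC5 was highest in Vehicle, apart from MKC8866, and its other groups overlapped. For PDIA3 each group overlapped with its neighbour in the order. Levels set across the experiments share no control. How many of all genes lay apart between siXBP1 and MKC8866 was not counted, so these separations are descriptions. The difference between the responses passed the test for P4HB and ERO1A. It did not pass for PDIA5 (edgeR adjusted p = 0.283) or PDIA6 (edgeR adjusted p = 0.0502).

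The rest of the PDI family was described from a list of 13 genes, of which 10 could be tested. After knockdown 4 were called lower and 0 higher, against 18.2% and 16.5% of all genes tested, with a median log2 fold change of -0.05. TXNDC15, a membrane thioredoxin-domain protein, fell by 1.15 on the log2 scale (SE 0.050, edgeR adjusted p = 3.47e-14). TMX3, a transmembrane isomerase, fell by 0.88 (SE 0.047, edgeR adjusted p = 1.37e-12). AGR2, a PDI known for mucin folding in secretory epithelia, fell by 0.86 (SE 0.090, edgeR adjusted p = 9.24e-08). DNAJC10, the reductase ERdj5 that works in ER-associated degradation, fell by 0.74 (SE 0.042, edgeR adjusted p = 3.75e-12). With MKC8866, 3 were called lower and 0 higher, against 3.11% and 1.36% of all genes tested, and the median was -0.10. AGR2 fell by 0.53 (edgeR adjusted p = 3.78e-05), DNAJC10 fell by 0.37 (edgeR adjusted p = 2.26e-06) and TXNDC15 fell by 0.36 (edgeR adjusted p = 8.85e-06). TMX3 stood at 0.00 (SE 0.051, edgeR adjusted p = 0.993), and its difference between the responses was -0.88 (SE 0.069, edgeR adjusted p = 4.60e-11). PDILT, a testis isomerase, was at most 0.0319 CPM in any library.

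A list of 10 other genes of ER thiol chemistry had 9 that could be tested. After knockdown 3 were called lower and 1 higher, against 18.2% and 16.5% of all genes tested, with a median of -0.16. VKORC1L1, a vitamin K epoxide reductase that can feed electrons away from PDIs, fell by 0.56 (SE 0.046, edgeR adjusted p = 1.91e-09). PRDX4, a peroxiredoxin that uses the hydrogen peroxide made by ERO1, fell by 0.54 (SE 0.057, edgeR adjusted p = 9.98e-08). SELENOM fell by 0.27 (SE 0.045, edgeR adjusted p = 3.93e-05), and QSOX1, a sulfhydryl oxidase that makes disulfides itself, rose by 0.23 (SE 0.045, edgeR adjusted p = 2.91e-04). With MKC8866, SELENOM (-0.27, edgeR adjusted p = 5.56e-04) and PRDX4 (-0.21, edgeR adjusted p = 0.00848) were called lower. H6PD, which makes NADPH in the ER lumen, was called higher (0.18, edgeR adjusted p = 0.0452), with overlap between the groups. The median was -0.06, and 3.11% of all genes tested were called lower and 1.36% higher.

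Of 10 genes for partners of PDIs, 9 could be tested. After knockdown 3 were called lower (18.2% of all genes tested) and 1 higher (16.5% of all genes tested), with a median of -0.04. P4HA1, an alpha subunit that pairs with P4HB in prolyl 4-hydroxylase, fell by 0.36 (SE 0.044, edgeR adjusted p = 9.92e-07), and P4HA2, the other such subunit called, fell by 0.21 (SE 0.066, edgeR adjusted p = 0.0152). UGGT1, the glucosyltransferase of the calnexin cycle, fell by 0.23 (SE 0.045, edgeR adjusted p = 3.33e-04). HSPA5, which encodes BiP, rose by 0.30 (SE 0.045, edgeR adjusted p = 1.69e-05). With MKC8866, HSPA5 was the only one called and fell by 0.15 (SE 0.032, edgeR adjusted p = 0.00476, median of the list -0.04), against 3.11% lower and 1.36% higher of all genes tested. HSPA5, like PDIA4, thus had opposite signs in the 2 experiments. Its difference between the responses was 0.45 (SE 0.058, edgeR adjusted p = 6.08e-07). CALR and CANX, which encode the lectin partners of PDIA3, were at -0.01 and -0.04 after knockdown and at -0.04 and -0.07 with MKC8866, and were not called.

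Known targets of ATF4, CHOP and hypoxia are given because ERO1A is known as a target of these factors. Of 6 genes of the ATF4 and CHOP arm, 1 was called lower and 2 higher after knockdown (median 0.06), where 18.2% and 16.5% of all genes tested were. With MKC8866, 0 were called (median 0.00), against 3.11% lower and 1.36% higher of all genes tested. DDIT3, which encodes CHOP, rose by 0.46 after knockdown (SE 0.041, edgeR adjusted p = 6.79e-09). TRIB3 rose by 0.10 (edgeR adjusted p = 0.0447) and ATF3 fell by 0.42 (SE 0.042, edgeR adjusted p = 5.06e-08). Of 8 hypoxia targets, 7 could be tested, and 3 were called lower and 2 higher after knockdown (median -0.03), again against 18.2% and 16.5% of all genes tested. ANKRD37 fell by 0.82 (SE 0.15, edgeR adjusted p = 1.87e-04), BNIP3 fell by 0.65 (SE 0.042, edgeR adjusted p = 3.32e-11) and NDRG1 fell by 0.56 (SE 0.051, edgeR adjusted p = 9.00e-09), while VEGFA rose by 0.23 (SE 0.044, edgeR adjusted p = 1.81e-04) and EGLN3, with overlap between the groups, by 0.22 (edgeR adjusted p = 0.0351). With MKC8866, 1 was called lower, ANKRD37 at -0.46 (SE 0.12, edgeR adjusted p = 0.028), and 0 higher (median -0.02), again against 3.11% and 1.36% of all genes tested. CA9 was listed at 0 in every library. Whether these factors have a part in the fall of ERO1A was not tested.

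**Figure D4:**
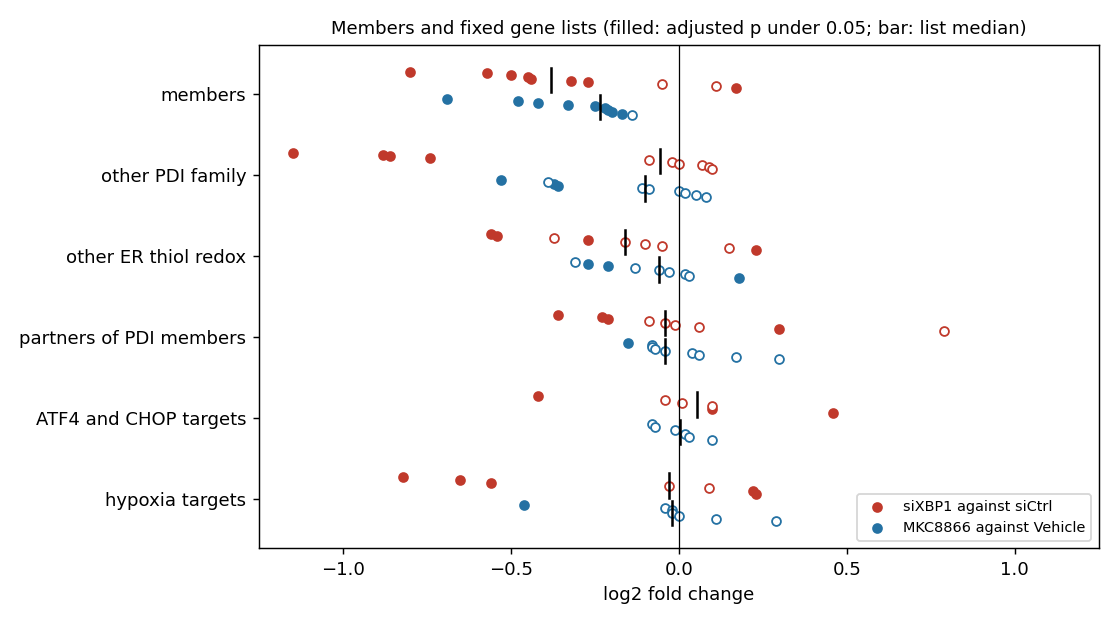
Log2 fold changes (x axis) of the 10 genes and of 5 related gene lists (rows) after XBP1 knockdown and with MKC8866, where each point is 1 gene, filled for an adjusted p under 0.05, and vertical bars mark the median of each list. The median of the 10 genes was -0.38 and -0.24, and the medians of the other lists lay between -0.16 and 0.06.

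For each of the 10 genes, the other gene whose log2 CPM had the highest Pearson correlation over the 16 libraries was found among 10250 genes with a mean of at least 10 CPM. These correlations are descriptions. The 16 libraries share the 4 groups, so that any genes with like group means correlate. P4HB was nearest to CKAP4 (r = 0.993), PDIA6 to ARFGAP3 (r = 0.981), PDIA5 to FKBP11 (r = 0.971) and ERP44 to SELENOK (r = 0.968). ERO1A was nearest to ATP6V1D (r = 0.987), ERO1B to MIS12 (r = 0.976), TXNDC11 to ATG13 (r = 0.967), PDIA4 to EWSR1 (r = 0.915) and PDIA3 to its own retrocopy PDIA3P1 (r = 0.914). TXNDC5 had the weakest nearest gene, ECI1 (r = 0.831). Among the 10 genes themselves, P4HB and PDIA6 were most alike (r = 0.943) and PDIA4 and ERO1A least alike (r = -0.478).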

How the data were processed

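RNA-seq counts of 16 libraries were analysed. The authors deposited whole-number counts of fragments per gene, without normalization. Per the labels and the file header, paired-end reads were aligned to hg38 with STAR 2.5.2a and counted with featureCounts 1.5.0 (1.5.0-p3 in the table header) on Ensembl genes, with replicates kept apart. Strand was ignored although the kit was stranded, and multimapping fragments and fragments in exons of 2 genes were left out, so that genes with shared exons or near-identical copies are undercounted. Of 58051 genes, 56948 were matched to a symbol.

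Each treatment was tested against its own control with edgeR 4.0.16 in R 4.3.3 (TMM, quasi-likelihood F test, two-sided, Benjamini-Hochberg adjusted p under 0.05), keeping genes whose count exceeded 5 in 1 or more libraries of both groups. The filter left 21021 genes for knockdown, 21045 for MKC8866 and 20357 for the interaction and the comparison of controls, which used all 16 libraries. The SE was the size of the log2 fold change over the square root of F, and intervals came from the SE and the t quantile at the degrees of freedom of that test. Printed CPM are TMM-normalized over the 16 libraries. Replicates varied by 5.40% (knockdown) and 4.97% (inhibitor) as a biological coefficient of variation. With 28713607 to 34509488 fragments per library, replicate spread rather than counting error limits the abundant genes.

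The 10 genes and all lists were chosen with earlier results of these data known. Named besides them were XBP1, genes and retrocopies overlapping or copying a member, the gene most correlated with each member and, per list and comparison, up to 4 called genes without overlap between groups. H6PD, EGLN3, SYP, COL3A1, TMX3 with MKC8866, CALR, CANX, PDILT and CA9 were named after their values were seen. Alternatives were DESeq2 1.42.0, RLE size factors, library totals, other filters, a replicate block, all 16 libraries in 1 fit, adjusted p under 0.01 and leaving out each library. The scripts were tested on simulated data. Spliced XBP1 reads and proteins were not analysed here.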

Additional observations from a re-analysis of the deposited data

Results flagged for a closer look

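In 2 of 40 groups of 4 libraries (10 genes in 4 groups), a single library stood far from the other 3, where chance flags about 1 in 20 groups. TXNDC5 was at 13.8 CPM in siXBP1 replicate 3, with a gap to the nearest library of 0.934 of the range of the group. PDIA3 was at 787 CPM in MKC8866 replicate 2, with a gap of 0.864 of the range. The PDIA3 value lay below every Vehicle library, and without that library the log2 fold change with MKC8866 was -0.24 (edgeR adjusted p = 7.74e-05).

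The difference between the response to knockdown and the response to MKC8866 was past the threshold for P4HB at -0.32 on the log2 scale (edgeR adjusted p = 1.62e-05), for PDIA4 at 0.39 (edgeR adjusted p = 5.41e-07) and for ERO1A at -0.66 (edgeR adjusted p = 2.48e-07). All 4 treated libraries lay on the same side of the control in both experiments for P4HB, on opposite sides for PDIA4, and overlapped with the control for ERO1A with MKC8866.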

How the results depend on the processing

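Of 150 results for single genes in each comparison of a treatment with its control (10 genes under 15 alternatives), 148 kept direction and side of the threshold after knockdown and 147 with MKC8866. TXNDC5 reversed after knockdown with the replicate block (-0.01) and without siXBP1 replicate 3 (-0.53), the other libraries left out giving up to 0.31. Leaving out each library gave 7 to 8 of the 10 genes lower after knockdown and 9 to 10 with MKC8866. Over all genes with MKC8866, 287 were called higher, 139 at an adjusted p under 0.01 and 180 to 484 when single libraries were left out, with 484 without MKC8866 replicate 2, 180 without replicate 1, 184 without replicate 3 and 191 without replicate 4, and 188 without Vehicle replicate 3.

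The number of genes with a more positive response after knockdown was 2 in place of 1 with DESeq2, library totals, no filter and the replicate block, and 1 to 2 with single libraries left out. PDIA3 was the gene added with DESeq2, library totals and the block, and TXNDC5 without the filter (edgeR adjusted p = 2.25e-07). In the main fit TXNDC5 did not pass (edgeR adjusted p = 0.119), and its difference of 0.80 fell to 0.15 without siXBP1 replicate 3. The difference for ERO1B crossed 0, at 0.01 with library totals and from -0.06 to 0.02 with single libraries left out. Genes higher in Vehicle than in siCtrl numbered 1 at an adjusted p under 0.01 and with DESeq2, and 1 to 3 with single libraries left out. The cause was not tested for any of these.

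Replicate numbers were not taken as pairs. Deviations of same-numbered libraries correlated at 0.008 to 0.061 over 15041 genes in the knockdown experiment and at 0.081 to 0.328 in the inhibitor experiment, where Vehicle replicate 3 correlated best with MKC8866 replicate 1 (0.138). With the replicate block, 1484 genes were called lower and 1262 higher with MKC8866, against 654 and 287, and ERO1A was called lower (adjusted p = 0.0131). In the interaction PDIA3 (adjusted p = 0.018) and PDIA6 (adjusted p = 0.0284) were called with it (edgeR throughout). The block could not be fitted for Vehicle against siCtrl. Counts were lowest for TXNDC5, with at least 126 fragments in a library.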
